A study of Mus musculus with 8 samples.

Results

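The genes described here are 159 symbols whose transcripts were abundant in control transit amplifying cells (TACs) of the mouse hair follicle and scarce in control bulge stem cells. They were chosen from the 22354 symbols listed in both tables: at least 20 FPKM (fragments per kilobase of transcript, scaled to the library's mapped fragments) in the Het TAC library of the Shh-CreER experiment and at least 16 times the level in the Het hair follicle stem cell (HFSC) library, a level of 0 in the latter counting as passing. Symbols that begin with Krt, 17 in number, were left out, as were entries that join several symbols. The choice therefore rests on measured values of 1 HFSC and 1 TAC control library, and the abundance of these genes in control TACs is the rule, not a result.

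The study deleted Bmpr1a, which encodes a receptor of bone morphogenetic proteins (BMPs), in the hair follicle lineage and sequenced RNA from 8 libraries of mice of mixed strain. Bulge HFSCs carried K15-CrePGR, a drug-inducible Cre driven from a keratin 15 promoter that is active in the bulge, with 1 Het and 1 cKO library at postnatal day 68. TACs carried either Shh-CreER, a drug-inducible Cre expressed where Shh is transcribed, with 1 Het and 1 cKO library at day 68, or K15-CrePGR, with 2 WT libraries (52 and 57) and 2 KO libraries (64 and 84) at day 80. The sample titles of the K15-CrePGR TAC libraries name the hair bulb, while their descriptions name TACs. The deleted genotype is Bmpr1a fl/fl with the Cre in all 3 experiments, and the controls are called Het in the day 68 experiments and WT at day 80. The labels used here give neither the drug schedule nor the number of animals in a library, and nothing in them says that the replicates came from separate animals, so a p-value here covers the spread between these libraries alone.

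TACs are the proliferating matrix cells at the base of a growing hair follicle. They divide a limited number of times and then differentiate into the hair shaft and the inner root sheath around it, while the bulge stem cells above them divide rarely. BMP signalling holds bulge stem cells in quiescence and is required in the matrix for differentiation of the shaft; Shh and Wnt ligands made in the matrix act on the matrix itself and on the dermal papilla beneath it. A hair follicle that loses Bmpr1a is known for an expanded matrix-like cell mass with poor shaft formation.

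The 159 genes were sorted by what their products do, a sorting made after their values had been seen. Cell cycle genes were the most numerous, with 48 members, followed by 28 genes of macrophages and other immune cells and 14 genes of the hair shaft and inner root sheath. There were 8 Wnt and hedgehog signalling genes, 8 transcription factors, 8 genes of metabolism and transport, 6 other signals or receptors, 5 genes of junctions, adhesion and matrix enzymes, and 17 others. The remainder belong to cells that are not hair epithelium: 8 genes of connective tissue, fat and vessels, 5 of skeletal muscle, 2 of haemoglobin and 2 of pigment cells. Among the shaft and sheath members are 2 keratins under older names that the rule on symbols did not catch: 5430421N21Rik is listed by RefSeq as Krt83, and 4732456N10Rik as Krt90.

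Promoters are shown for the largest groups of hair epithelial genes with a common role, cell cycle genes and shaft and sheath genes. RefSeq promoters of build GRCm38.p6, covering 250 bases before to 50 after each gene's first listed start, were found for 123 of the 159 members. Among cell cycle members, 23 of 37 held TTTGAA on either strand, against 18.1% of all 27025 promoters. TTTGAA is the core of the cell cycle genes homology region, an element known from genes transcribed late in the cycle, and the search for it was added after the first motif counts were seen. The pentamer CCAAT, also added then and known from the same promoters, was present in 23 of 37 against 37.9% of all, and TATAAA in 2 of 37 against 14.2% of all. TTTGAA can overlap CTTTGA, which was found in 5 of the 37 against 16.2% of all. The cell cycle members of highest level with TTTGAA in the 250 bases before the start were Top2a (chr11:99024190-99024439, minus strand), Ccnb2 (chr9:70421555-70421804, minus strand) and Mki67 (chr7:135716380-135716629, minus strand). Each sequence runs 5′ to 3′ and ends at the base before the start, with TTTGAA and its reverse complement in capitals.
Top2a: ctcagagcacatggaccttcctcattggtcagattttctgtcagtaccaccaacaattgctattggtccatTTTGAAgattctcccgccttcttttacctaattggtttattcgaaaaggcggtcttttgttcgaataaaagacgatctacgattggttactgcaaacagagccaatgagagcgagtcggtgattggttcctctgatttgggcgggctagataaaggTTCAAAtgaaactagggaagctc
Ccnb2: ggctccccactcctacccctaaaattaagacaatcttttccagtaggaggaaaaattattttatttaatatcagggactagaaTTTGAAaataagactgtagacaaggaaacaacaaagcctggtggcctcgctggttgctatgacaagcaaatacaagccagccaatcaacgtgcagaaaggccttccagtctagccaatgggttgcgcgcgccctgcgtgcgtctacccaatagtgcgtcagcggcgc
Mki67: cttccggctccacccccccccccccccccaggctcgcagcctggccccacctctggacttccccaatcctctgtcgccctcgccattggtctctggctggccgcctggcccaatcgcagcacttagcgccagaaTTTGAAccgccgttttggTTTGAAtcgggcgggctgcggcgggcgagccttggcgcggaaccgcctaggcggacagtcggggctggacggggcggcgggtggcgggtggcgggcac
Top2a, a DNA topoisomerase needed to separate chromosomes, and Mki67, a coat protein of mitotic chromosomes, each held the hexamer 2 times, and Ccnb2, a mitotic cyclin, held it 1 time.

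Several motifs were counted in the promoters of every role, among them TTTATT, an AT-rich hexamer of the kind that posterior Hox homeodomain proteins bind. TTTATT was present in 7 of 11 shaft and sheath promoters, against 19.96% of all promoters and 4 of 37 of the cell cycle members. Over all members it was present in 22 of 123. In the shaft and sheath promoters TTTATT had the largest share of the motifs counted. TATAAA was present in 4 of the 11, CTTTGA in 2, CATGTG in 2 and GGCGCC in 1. The shaft and sheath members of highest level with TTTATT before the start were S100a3 (chr3:90584409-90584658, plus strand), Tchh (chr3:93442080-93442329, plus strand) and Gprc5d (chr6:135118284-135118533, minus strand), printed as above with TTTATT and its reverse complement in capitals.
S100a3: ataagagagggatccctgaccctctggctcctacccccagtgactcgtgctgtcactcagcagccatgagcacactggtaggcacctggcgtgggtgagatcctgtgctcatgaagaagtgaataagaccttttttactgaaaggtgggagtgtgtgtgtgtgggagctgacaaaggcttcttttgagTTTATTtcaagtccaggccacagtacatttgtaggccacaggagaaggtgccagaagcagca
Tchh: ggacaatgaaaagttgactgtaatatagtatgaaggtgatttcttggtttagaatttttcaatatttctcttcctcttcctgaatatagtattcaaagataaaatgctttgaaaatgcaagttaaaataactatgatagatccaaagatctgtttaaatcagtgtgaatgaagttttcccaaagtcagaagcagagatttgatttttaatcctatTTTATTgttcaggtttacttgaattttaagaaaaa
Gprc5d: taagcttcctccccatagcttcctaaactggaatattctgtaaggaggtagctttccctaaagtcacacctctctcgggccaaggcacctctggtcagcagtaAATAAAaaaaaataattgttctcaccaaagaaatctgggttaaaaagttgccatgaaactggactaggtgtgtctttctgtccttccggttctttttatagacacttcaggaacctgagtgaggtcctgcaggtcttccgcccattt
S100a3 is a calcium-binding protein of the hair cuticle, Tchh (trichohyalin) a structural protein of the inner root sheath and medulla, and Gprc5d a receptor of the differentiating shaft. These matches describe letters in a window and were not tested for function.

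Before the comparisons, the libraries were checked against the lineage labels and the deletion. The bulge marker Cd34 was listed at 556 FPKM in HFSC Het and 22.1 in Shh-CreER Het TACs, and Krt15 at 7834 and 86.4. The matrix marker Krt35 was at 0.141 and 3092, so labels and markers matched in these Het libraries. In HFSC cKO and Shh-CreER cKO, Cd34 was at 147 and 23.4, Krt15 at 3075 and 141, and Krt35 at 5.18 and 268. In a list of bulge markers, 23 genes averaged at least 1 FPKM in HFSCs. Of these, 5 were at least 2-fold lower in HFSC cKO and 4 at least 2-fold higher (background 4.6% and 5.92% of loci). The BMP target Id1 was lower in each deleted library than in its controls, at 111 against 297 in HFSCs, 49.2 against 358 in Shh-CreER TACs, and 120 and 136 against 289 and 178 in K15-CrePGR TACs. Whole-gene Bmpr1a lay between 31.8 and 46.0 FPKM in all 8 libraries, a value that does not check excision, because it is read over the whole gene. Xist and the Y-linked genes set libraries apart within groups: Xist was at 3.26 in WT 52 and between 175 and 226 in the other 3 K15-CrePGR TAC libraries, and at 68.9 in HFSC Het against 3.98 in HFSC cKO. The HFSC and Shh-CreER comparisons have 1 library a side and share the very control libraries that chose the genes, so they are given as descriptions without a test. No value of the K15-CrePGR TAC table entered the rule, so its test does not reuse the values that chose the genes, although the set was proposed with earlier results of all 3 tables known.

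All 151 members listed there as single symbols entered the K15-CrePGR test, and 87 of them reached a mean of at least 20 FPKM in the 2 WT libraries. Of the other members, 6 were listed only in entries that join symbols and 2 had no entry. In limma's test on log2(FPKM + 1), adjusted over all 13565 named loci, 0 members were called lower in KO (background 0.0295% of loci) and 0 higher (background 0.0369%). At an unadjusted p below 0.05, 28 of the 151 were lower (18.5%, background 7.08%) and 25 were higher (16.6%, background 10.3%), together 53 (35.1%, background 17.4%). Both KO libraries lay below both WT libraries for 62 members (41.1%, background 27.5%) and above both for 41 (27.2%, background 26.8%). The median difference of the 151 was -0.22, against -0.03 over all loci. On simulated data of the same design a 2-fold change was called at 0 of 67 loci, a 4-fold change at 13 of 67 and an 8-fold change at 35 of 66. The simulation gave each value independent noise and left 13365 loci unchanged, so its shares need not hold for the measured libraries.

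The share below WT varied with the control ratio and was highest short of the 16-fold rule. Among all genes with at least 20 FPKM in Shh-CreER Het TACs, both KO libraries lay below both WT libraries for 25.6% of those expressed at under 0.5 times the bulge level, 24.4% at 0.5 to 1 times, 31.5% at 1 to 2 times, 52.3% at 2 to 4 times, 61.1% at 4 to 8 times and 42.3% at 8 to 16 times. The members had the wider spread of differences, which was not tested. Their middle 50% of differences ran from -0.48 to 0.86, against -0.46 to 0.02 for genes at 8 to 16 times the bulge level. The share above WT was 27.2% for members and 12.6% for that neighbouring class. Without the roles of other cell types, a choice made after seeing the data, 61 of 113 members lay below WT and 17 above (background over all loci 27.5% and 26.8%).

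**Figure D1:**
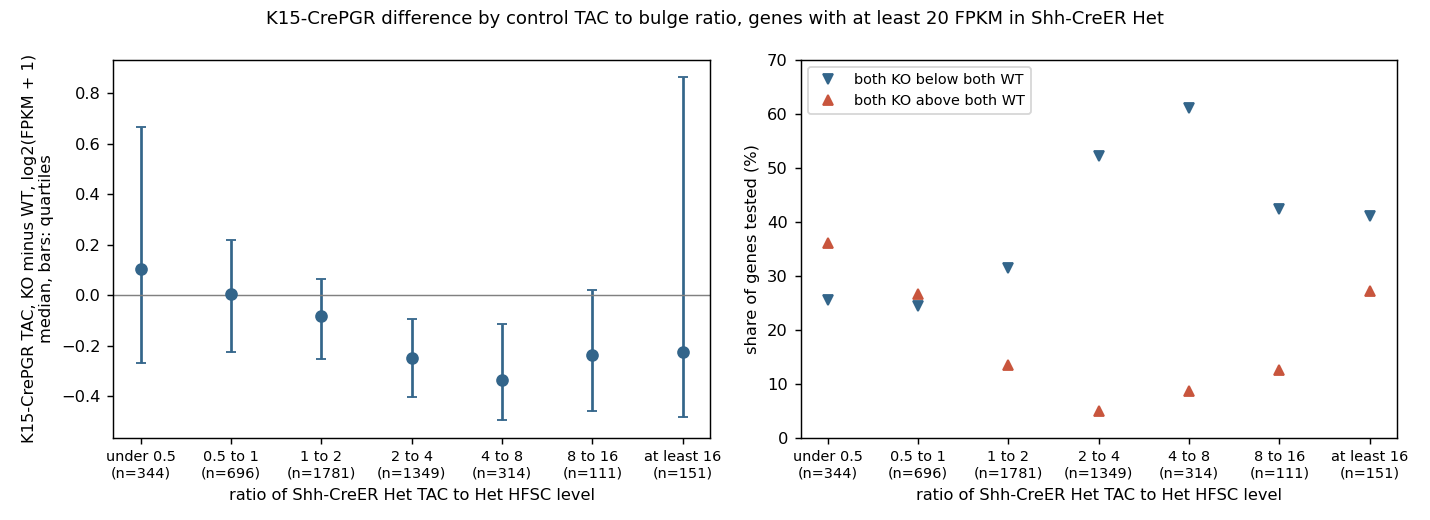
K15-CrePGR TAC differences (KO minus WT, log2(FPKM + 1)) of genes with at least 20 FPKM in the Shh-CreER Het library, by the ratio of that level to the HFSC Het level. Left, medians with bars from the lower to the upper quartile; right, the percent of genes with both KO libraries below (blue) or above (red) both WT libraries. The share below peaks at 61.1% in the class of 4 to 8 times, and the members (at least 16 times) have the widest quartile bar, from -0.48 to 0.86.

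The cell cycle members formed a narrow block in every table, higher in deleted bulge cells and slightly lower in K15-deleted TACs. Their summed level in HFSCs was 125 FPKM in Het and 498 in cKO. All 48 were higher in the cKO library, as were 6620 of all 12205 loci, by 2.33-fold to 7.86-fold with a median of 3.94-fold. A low Het level was part of the rule, and 2 of the 48, Mcm10 and Bub1, passed the level filter only through the cKO library, so these ratios are a description. Levels ran from 0.364 to 10.006 FPKM in Het and from 2.86 to 33.6 in cKO. In Shh-CreER TACs the same genes summed to 2578 in Het and 2800 in cKO, and the ratio of cKO to Het ran from 0.907 to 1.35. The cKO HFSC level stayed well under the TAC level, although the tables were normalized separately: the median ratio of Shh-CreER cKO TACs to cKO HFSCs was 5.93, and 45 of the 48 genes had a ratio under 8.

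Values of single cell cycle genes show how alike they were. Birc5, which encodes survivin, a member of the chromosomal passenger complex, was at 5.44 FPKM in HFSC Het and 28.1 in cKO, and at 131 in Het and 133 in cKO of the Shh-CreER TACs. Ccna2, the cyclin of S phase and early mitosis, went from 5.42 to 23.5 in HFSCs and was at 132 and 120 in Shh-CreER TACs. Mki67 was at 5.80 and 20.1 in HFSCs and at 97.2 and 125 in Shh-CreER TACs. The TAC libraries were at similar levels while the HFSC pair was far apart for all 3 genes. Mcm10, a replication initiation factor chosen here after its values were seen, was at 0.364 and 2.86 FPKM in the HFSC pair. Ccne1 and Ccne2, the cyclins of entry into S phase, were at 1.48 and 1.86 in HFSC Het and at 4.17 and 6.01 in cKO.

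In K15-CrePGR TACs, 30 of 47 cell cycle members had both KO libraries below both WT libraries (background 27.5%) and none lay above, beside 52.3% and 61.1% of genes at 2 to 4 and 4 to 8 times the bulge level. The summed level was 1720 and 2126 FPKM in WT 52 and WT 57, and 1503 and 1496 in KO 64 and KO 84. The median difference was -0.36, with a range of -0.57 to 0.04; without WT 57, the higher of the controls, it was -0.16. The lowest p belonged to Trip13, a remodelling ATPase of the spindle checkpoint, at 17.6 and 19.3 in WT and 12.2 and 12.2 in KO (log2 difference -0.56, SE 0.139, limma adjusted p = 0.196). Ccnb2 was at 66.0 and 78.9 in WT and 49.9 and 52.8 in KO, without overlap, whereas Kif20a, a mitotic kinesin named after its values were seen, was at 23.8 and 28.7 in WT and 23.7 and 24.0 in KO and did overlap. The Top2a entry, joined with a small nucleolar RNA, was at 114 and 177 in WT and 125 and 105 in KO.

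Cell cycle genes outside the members moved in the same direction in HFSCs, and the lists used for this were drawn up with earlier results of these data known. Of the mitosis list without its members, 15 of 17 genes above the level filter were at least 2-fold higher in the HFSC cKO library (background 5.92%). Of the DNA replication list without its members, 17 of 32 were. In K15-CrePGR TACs, both KO libraries lay below both WT libraries for 10 of 16 mitosis genes and 4 of 29 replication genes outside the members (background 27.5%). Of these replication genes, 24 overlapped, so they did not share the lower K15-CrePGR level of the cell cycle members.

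**Figure D2:**
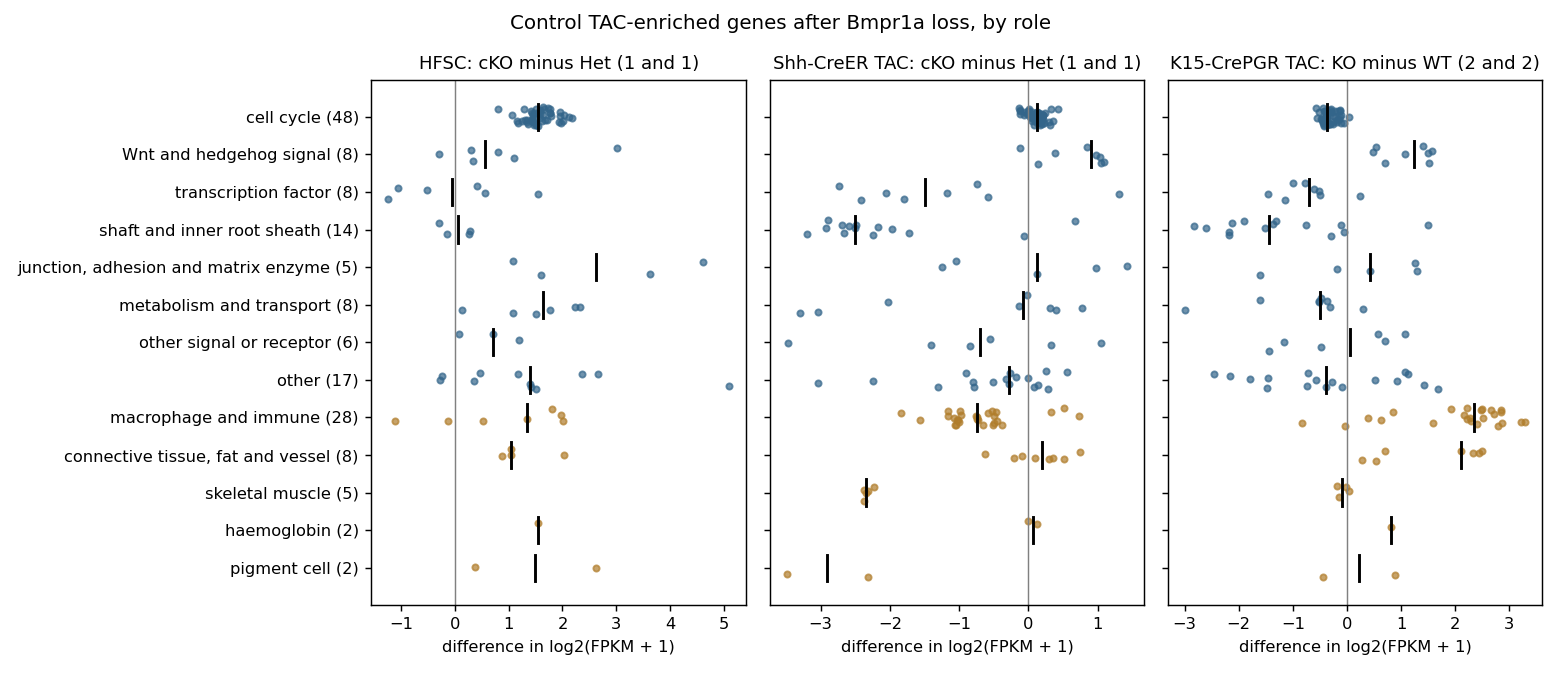
Difference between deleted and control libraries (log2(FPKM + 1)) for each member, by role, in the HFSC, Shh-CreER TAC and K15-CrePGR TAC tables; the number of members of each role is in parentheses, points are genes, black bars are medians, and members under the level filter of a table are not drawn. Blue marks epithelial roles and brown marks roles of other cell types. Cell cycle genes cluster near 1.54 in HFSCs, 0.12 in Shh-CreER TACs and -0.36 in K15-CrePGR TACs, whereas shaft and sheath genes have medians of -2.50 and -1.44 in the 2 TAC tables.

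Genes of the hair shaft and inner root sheath had a lower summed level in the deleted TACs of both experiments. Together they reached 1716 FPKM in Het and 636 in cKO of the Shh-CreER TACs, where 12 of 14 were at least 2-fold lower (background 2.77%; a high Het level was part of the rule), and 1233 and 1048 in WT against 516 and 178 in KO of the K15-CrePGR TACs. In the K15-CrePGR TACs, 9 of 14 had both KO libraries below both WT libraries and none lay above (background 27.5% and 26.8%), with a median difference of -1.44 and 6 genes at an unadjusted p below 0.05. Without KO 84 the median was -0.74, and 4 of the 14 had KO 64 above both WT libraries. S100a3, the most abundant member of all, was at 623 and 459 FPKM in WT and at 166 and 81.7 in KO (log2 difference -2.19, SE 0.406, adjusted p = 0.139), and at 822 and 109 in Het and cKO of the Shh-CreER TACs. The WT and KO values did not overlap.

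The keratin 5430421N21Rik (Krt83), a hair cortex and cuticle keratin, was at 69.8 and 65.3 in WT and 18.6 and 5.48 in KO (log2 difference -2.60, SE 0.559, adjusted p = 0.166). Dsg4, the desmoglein of the hair cortex, was at 35.5 and 30.3 in WT and 15.5 and 9.37 in KO (log2 difference -1.37, SE 0.272, adjusted p = 0.147). Crym, a thyroid hormone-binding crystallin, was at 49.4 and 50.9 in WT and 13.1 and 2.71 in KO (log2 difference -2.82, SE 0.667, adjusted p = 0.183). In these 3 genes KO 84 was the lower of the KO libraries. Ly6g6d, a small surface protein of the Ly6 family, was at 39.1 and 30.7 in WT and 13.51 and 9.77 in KO (log2 difference -1.51, SE 0.227, adjusted p = 0.111). Prr9, a proline-rich protein of the cornified shaft, was at 181 and 96.8 in WT and 55.8 and 14.4 in KO, but at 124 and 119 in the Shh-CreER pair.

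Genes that act in the inner root sheath did not share a single pattern. Tchh was higher in the cKO library of the Shh-CreER TACs, at 313 against 196 FPKM, and lower in both KO libraries of the K15-CrePGR TACs, at 89.2 and 12.7 against 127 and 181 (log2 difference -2.12, SE 0.946, adjusted p = 0.337). Tgm3, a transglutaminase that cross-links trichohyalin, was lower in both, at 34.3 and 6.80 in the Shh-CreER pair and at 30.1 and 34.3 in WT against 20.97 and 7.11 in KO. Padi4, an enzyme that converts arginine to citrulline in proteins, was at 45.3 and 6.15 in the Shh-CreER pair, while its K15-CrePGR values overlapped, at 18.4 and 25.5 in WT and 21.1 and 7.07 in KO. Its relative Padi3, which acts on trichohyalin and S100a3, was at 66.1 and 19.3 in the Shh-CreER pair and at 26.7, 31.3, 38.3 and 14.0 in WT 52, WT 57, KO 64 and KO 84. For both Padi genes KO 64 lay within or above WT and KO 84 below it. The keratin 4732456N10Rik (Krt90) stood outside the general direction in the K15-CrePGR table, at 1.98 and 6.44 in WT and 23.5 and 6.16 in KO, with overlap.

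Shaft genes outside the members were also mostly lower in K15-CrePGR KO: 11 of the 19 tested in the hair shaft and cuticle list lay below both WT libraries and 3 above, with a median of -0.62. For all lists in this paragraph the background was 27.5% below and 26.8% above. The inner root sheath list without its members was even, with 4 of 11 below and 4 above. Bulge markers moved the other way: 17 of 20 tested in the bulge list lay above both WT libraries and 1 below, with summed levels of 338 and 316 FPKM in WT and 1065 and 745 in KO. Among them, Krt15 was at 62.5 and 118 in WT and 246 and 341 in KO, and Lhx2, a factor of the bulge, at 48.6 and 44.7 in WT and 152 and 225 in KO. The part of bulge or outer root sheath cells in the lower shaft values was not tested. In HFSCs the shaft and sheath members stayed low, with a summed level of 19.9 FPKM in Het and 25.01 in cKO. S100a3 supplied much of that sum, at 12.7 and 10.3.

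**Figure D3:**
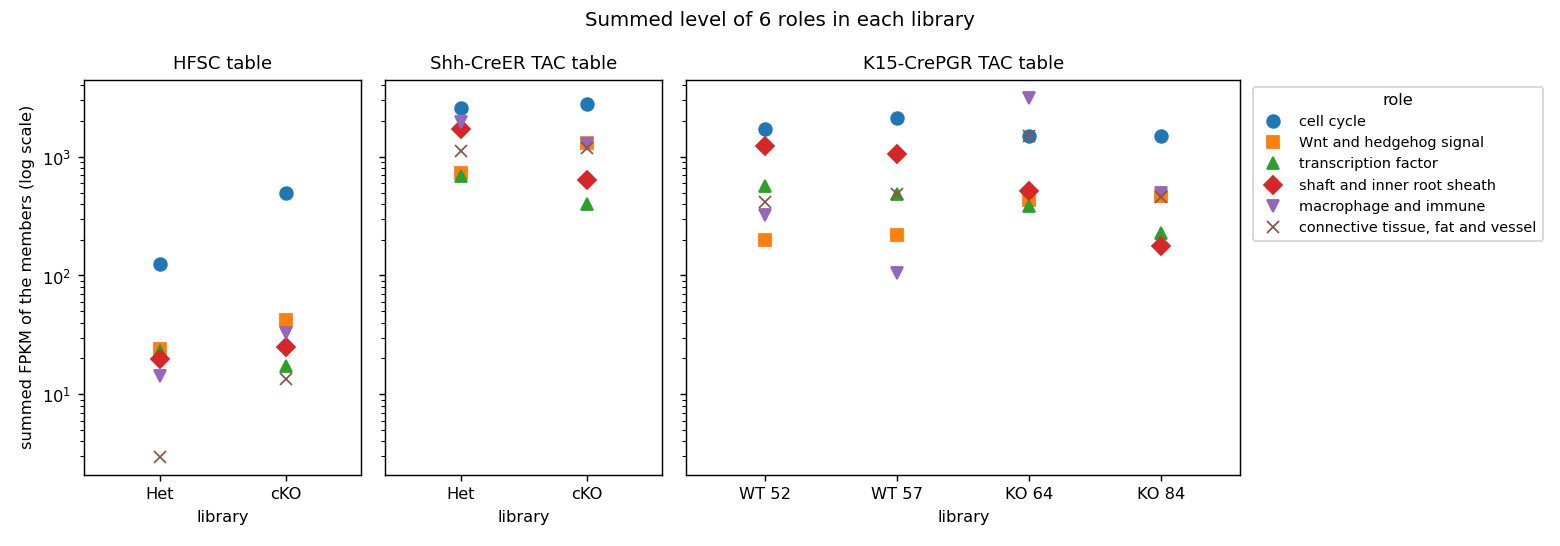
Summed FPKM (log scale) of the members of 6 roles in each of the 8 libraries; each symbol is 1 library, and the tables were normalized separately. The shaft and inner root sheath sum (red) is lowest in KO 84 among the TAC libraries, at 178, and the immune sum (purple) is highest in KO 64, at 3146.

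Transcription factors of the matrix also had a lower summed level in the deleted TACs of both experiments. Msx1 and Msx2 are homeodomain factors known as BMP targets, Dlx2, Dlx3 and Dlx4 are distal-less homeodomain factors, and Lef1 is the Wnt effector of the shaft precursors. The 8 factors summed to 694 FPKM in Het and 400 in cKO of the Shh-CreER TACs, and to 563 and 484 in WT against 385 and 228 in KO of the K15-CrePGR TACs. In the K15-CrePGR TACs, 5 of 8 lay below both WT libraries (background 27.5%), none above, with a median of -0.70. Without KO 84 the median was -0.39 and 1 lay above.

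Dlx3, required for shaft differentiation, was at 194 and 180 FPKM in WT and 129 and 90.9 in KO (log2 difference -0.78, SE 0.225, adjusted p = 0.227), and at 197 and 86.8 in the Shh-CreER pair. Msx2 was at 130 and 90.3 in WT and 65.5 and 35.3 in KO (log2 difference -1.15, SE 0.369, adjusted p = 0.251), and at 175 and 49.5 in the Shh-CreER pair. Both genes were also lower in the HFSC cKO library, Dlx3 at 3.77 against 10.2 and Msx2 at 2.78 against 6.83. They were 2 of only 3 members at least 2-fold lower in deleted HFSCs, the other being the chemokine gene Ccl6. Msx1 was at 59.5 and 8.05 in the Shh-CreER pair and at 64.9, 51.8, 54.2 and 14.7 in WT 52, WT 57, KO 64 and KO 84, so that only KO 84 was low. Dlx2 was at 41.7 and 6.999 in the Shh-CreER pair, and its K15-CrePGR values overlapped, at 35.1 and 21.5 in WT and 28.2 and 13.003 in KO. Dlx4, named after its values were seen, was at 27.1 and 33.8 in WT and 15.3 and 6.84 in KO without overlap.

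Lef1 was at 68.9 and 64.1 in WT and 50.2 and 36.8 in KO (log2 difference -0.62, SE 0.202, adjusted p = 0.255), and at 87.0 and 51.6 in the Shh-CreER pair. Myb, a factor of proliferating progenitors, went against the rest of the group in the Shh-CreER TACs, at 65.2 in Het and 163 in cKO, while its K15-CrePGR values overlapped, at 10.0002 and 14.8 in WT and 19.0 and 11.04 in KO. Hair lineage factors outside the members showed no common direction in the K15-CrePGR table, with 7 of 22 below WT and 8 above (background 27.5% and 26.8%).

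Signals of the Wnt and hedgehog pathways had a higher summed level in the deleted TACs of both experiments. They summed to 723 FPKM in Het and 1316 in cKO of the Shh-CreER TACs, and to 200 and 219 in WT against 435 and 472 in KO of the K15-CrePGR TACs. In the K15-CrePGR TACs, 7 of 8 lay above both WT libraries (background 26.8%), none below, with a median difference of 1.24 and 6 at an unadjusted p below 0.05. None passed the adjusted test, the smallest limma adjusted p being 0.0907. Wif1 and Notum of this group are also dermal papilla genes. Of the dermal papilla list outside the members, 7 of 15 lay above both WT libraries and 0 below (background 26.8% and 27.5%). Their summed levels were 57.01 and 52.2 FPKM in WT and 138 and 87.5 in KO. The part of papilla cells in these values was not tested.

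The ligand Shh was at 19.6 and 19.8 FPKM in WT and 50.5 and 72.8 in KO (log2 difference 1.58, SE 0.219, adjusted p = 0.109). It was at 111 and 199 in the Shh-CreER pair, where the Cre is driven from the same gene in both libraries, and at 0.0420 and 1.33 in the HFSC pair. Every deleted library was above its controls in all 3 tables. The HFSC pair averaged under the filter of 1 FPKM, and the HFSC and Shh-CreER Het levels were used by the rule. Only the K15-CrePGR values are therefore free of the choice of the gene.

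Wnt6 was at 8.07 and 10.7 in WT and 27.6 and 29.4 in KO (log2 difference 1.52, SE 0.183, adjusted p = 0.0907), and at 45.8 and 99.2 in the Shh-CreER pair. Wnt10b, a ligand of the matrix, was at 120 and 251 in the Shh-CreER pair, but its K15-CrePGR values overlapped, at 61.1 and 45.8 in WT and 58.9 and 92.3 in KO. Wnt5a, a ligand best known for signalling without beta-catenin and named here after its values were seen, was at 34.7 and 47.0 in WT and 67.6 and 51.7 in KO. Inhibitors of Wnt signalling are also among the members. Wif1, which binds Wnt ligands, was at 25.3 and 29.5 in WT and 96.9 and 57.1 in KO (log2 difference 1.41, SE 0.297, adjusted p = 0.160), and at 232 and 459 in the Shh-CreER pair. Kremen2, a partner of the Dkk inhibitors, was at 9.32 and 10.3 in WT and 19.99 and 23.6 in KO (log2 difference 1.07, SE 0.160, adjusted p = 0.111), at 73.1 and 95.8 in the Shh-CreER pair and at 4.28 and 3.32 in the HFSC pair. Notum, an enzyme that inactivates Wnt ligands and is also made by the dermal papilla, was at 10.1 and 9.09 in WT and 14.0 and 18.7 in KO, and at 33.2 and 30.5 in the Shh-CreER pair.

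Other Wnt and hedgehog genes, outside the members, leaned the same way in the K15-CrePGR table (background 26.8% above and 27.5% below). In the hedgehog list 6 of 10 lay above both WT libraries and 1 below, with a median of 0.71. In the Wnt list 18 of 38 lay above and 6 below, with a median of 0.27. In the BMP and TGF-beta list, which is a different pathway, 16 of 31 lay above and 5 below. None of the genes in these 3 lists was called after adjustment.

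**Figure D4:**
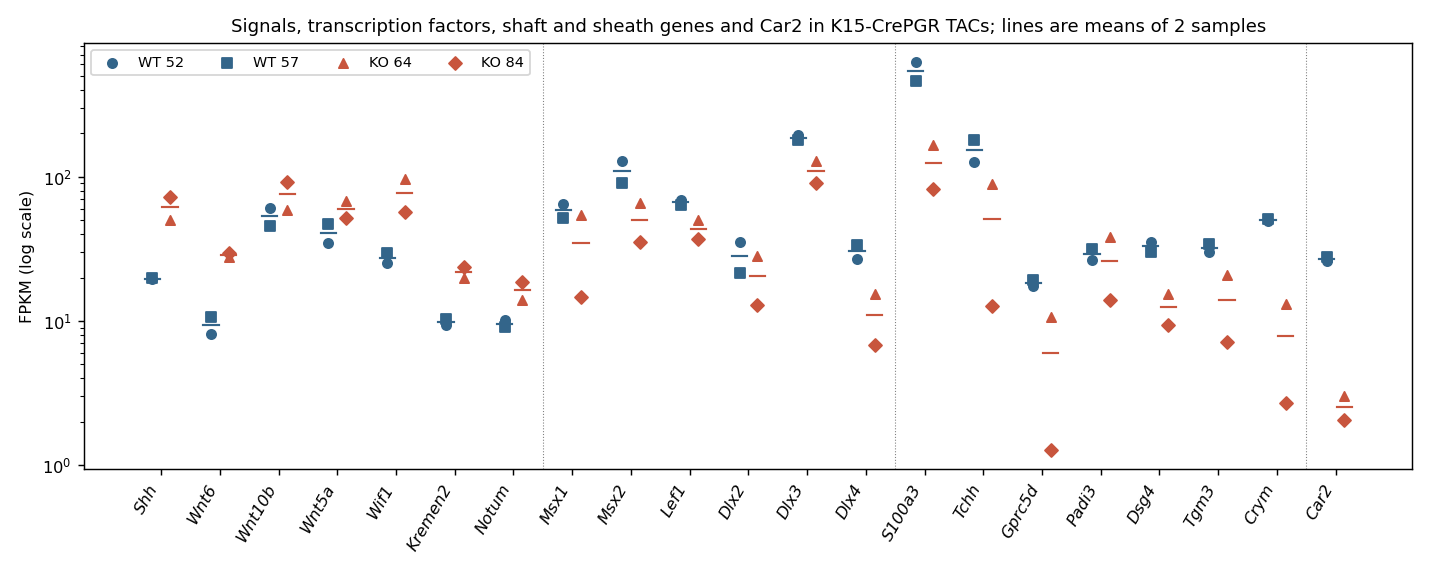
FPKM (log scale) of Wnt and hedgehog signals, transcription factors, shaft and sheath genes and Car2 in the 4 K15-CrePGR TAC libraries; blue symbols are WT, red symbols are KO, and lines are means of 2 libraries. Shh is at 19.6 and 19.8 in WT and at 50.5 and 72.8 in KO, whereas Car2 is at 26.1 and 27.9 in WT and at 3.03 and 2.06 in KO.

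The smallest p among all members belonged to Car2, a carbonic anhydrase, in the metabolism and transport group. Its locus is listed at chr3:14886425-14900769 (mm9), and its level was 26.1 and 27.9 FPKM in WT and 3.03 and 2.06 in KO (log2 difference -2.99, SE 0.197, limma adjusted p = 0.0560). It was at 25.9 and 2.28 in the Shh-CreER pair, a similar ratio in the other TAC experiment. Cybrd1, a ferric reductase of the plasma membrane named after its values were seen, was at 44.6 and 31.998 in WT and 19.2 and 6.99 in KO, and at 56.2 and 13.04 in the Shh-CreER pair. Aldh1a3, which makes retinoic acid, was at 81.7 and 7.37 in the Shh-CreER pair, but its K15-CrePGR values were 76.5, 58.3, 72.3 and 30.0 in WT 52, WT 57, KO 64 and KO 84, so that only KO 84 was low. The lipid genes Fads2, a fatty acid desaturase, and Scarb1, a lipoprotein receptor, were among the members with the largest differences between HFSC Het and cKO, from 0.451 to 5.82 and from 1.07 to 9.43. A low Het level was part of the rule, and Fads2 passed the level filter only through the cKO library, so these differences are a description.

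Junction and adhesion genes differed from one another. Gjb2 and Gjb6 encode the gap junction proteins connexin 26 and connexin 30. In deleted HFSCs they went from 4.46 to 132 FPKM and from 1.25 to 26.9. On log2(FPKM + 1) these were the largest increases of members with epithelial roles, apart from the Y-linked Eif2s3y. A low HFSC Het level was part of the rule for both, so this ranking is a description. In K15-CrePGR TACs Gjb2 was at 444 and 444 in WT and 361 and 425 in KO, and Gjb6 was at 23.2 and 39.2 in WT and 61.6 and 92.5 in KO (log2 difference 1.30, SE 0.343, adjusted p = 0.207). Cdh6, a cadherin, went in opposite directions in the TAC experiments: 96.1 and 260 in the Shh-CreER Het and cKO libraries, and 27.3 and 32.9 in WT against 11.2 and 7.53 in KO of the K15-CrePGR TACs (log2 difference -1.60, SE 0.236, adjusted p = 0.111). Has3, a hyaluronan synthase, was higher in both, at 20.3 and 41.1 in the Shh-CreER pair and at 13.1 and 13.02 in WT against 27.7 and 38.6 in KO (log2 difference 1.26, SE 0.205, adjusted p = 0.121). Cldn10, a tight junction claudin, was at 244 and 103 in the Shh-CreER pair and overlapped in the K15-CrePGR table.

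Among the other members, Dclk3, a kinase of the doublecortin family, was at 37.5 and 31.5 in WT and 11.2 and 12.3 in KO (log2 difference -1.47, SE 0.160, adjusted p = 0.0866), and at 47.7 and 9.30 in the Shh-CreER pair. Ccdc109b, listed by RefSeq as Mcub, a subunit of the mitochondrial calcium channel, was at 55.2 and 63.4 in WT and 20.52 and 13.03 in KO (log2 difference -1.79, SE 0.256, adjusted p = 0.111). Phlda2, a small pleckstrin homology protein, was at 27.1 and 19.1 in WT and 11.6 and 8.01 in KO (log2 difference -1.16, SE 0.266, adjusted p = 0.175). On the higher side, Basp1, a membrane-associated protein of growing neurites, was at 20.53 and 15.3 in WT and 51.6 and 47.4 in KO (log2 difference 1.43, SE 0.193, adjusted p = 0.102). Nrp2, a co-receptor for semaphorins and VEGF, was at 32.2 and 35.9 in WT and 59.3 and 89.5 in KO (log2 difference 1.08, SE 0.245, adjusted p = 0.173), and at 38.0 and 79.7 in the Shh-CreER pair. Wipi1, an autophagy protein, was at 23.6 and 25.9 in WT and 45.6 and 61.4 in KO (adjusted p = 0.139), and Bex1, a small brain-expressed protein, at 3.02 and 4.85 in WT and 8.96 and 10.4 in KO (adjusted p = 0.168). WT and KO did not overlap for any of these 7 genes. Tubb6, a beta-tubulin, was at 3.82 and 29.3 in the HFSC pair, and its K15-CrePGR values overlapped, at 35.3 and 53.0 in WT and 36.7 and 34.8 in KO. Tagln3, an actin-binding protein of neurons, was at 41.1 and 4.10 in the Shh-CreER pair and at 38.1 and 12.1 in WT against 7.09 and 2.19 in KO. Sct, the hormone secretin, was at 46.2 and 3.25 in the Shh-CreER pair while its K15-CrePGR values overlapped, at 7.63 and 14.8 in WT and 31.95 and 8.25 in KO.

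Eif2s3y, a Y-linked translation factor, met the rule because it was at 0.551 FPKM in HFSC Het and 36.5 in Shh-CreER Het. Its level of 51.7 in HFSC cKO was the largest difference of all members in HFSCs, and in the K15-CrePGR table it was at 82.4 in WT 52 and between 0.200 and 2.33 in the other 3. Across the K15-CrePGR libraries it was high in the library with little Xist, and its level did not follow the genotype, and in HFSCs sex-linked transcripts and genotype cannot be told apart.

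Counted over all members, 76 of the 102 that averaged 1 FPKM or more were at least 2-fold higher in the HFSC cKO library (background 5.92%) and 3 were at least 2-fold lower (background 4.6%); the other 57 were under that level. Of the 102, 19 passed only through the cKO library, so their difference was bound to be upward, and a low control level was part of the rule, so nothing is read from the count. Genes at 8 to 16 times the bulge level, outside the members but chosen by the same 2 libraries, were at least 2-fold higher for 70 of 123. In the Shh-CreER TACs, 44 of 159 members were at least 2-fold lower in cKO (background 2.77%) and 6 at least 2-fold higher (background 2.67%), with a high Het level again fixed by the rule. Among the higher genes were Cdh6, Myb, Wnt6, Wnt10b and Nrp2. In the K15-CrePGR table, which shares no library with the Shh-CreER pair, 3 of the 6 lay above both WT libraries and 1 below (background 26.8% and 27.5%). Of the 44 lower genes, 42 were tested there, and 16 lay below both WT libraries and 9 above (background 27.5% and 26.8%). Among all 151 members tested, 62 lay below and 41 above, so the lower genes did not stand out from the members. Without the roles of other cell types, 27 of the lower genes were left, 16 of them below and 1 above, beside 61 below and 17 above among all 113 such members tested.

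The rule was then read with the deleted libraries in place of the controls. In the Shh-CreER cKO library 118 of the 159 were at 20 FPKM or more, and 92 had less than 16 times the HFSC cKO level, so that 46 met both parts. The median level of the members was 45.3 FPKM in Shh-CreER Het, 37.2 in Shh-CreER cKO, 1.15 in HFSC Het and 2.89 in HFSC cKO. At the edge of the rule, Plk1 had a ratio of 16.003, Pbk 16.1 and Kif22 16.3, and just outside were Rexo2 at 15.99, Mcm5 at 15.97 and E2f8 at 15.6. By level, Srgn at 20.2, Kif26a at 20.3 and Has3 at 20.3 FPKM were inside, and Cxcl9 at 19.9, Serpinf1 at 19.9 and Cenpe at 19.8 were outside.

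Members that mark cells other than hair epithelium varied between libraries of the same group. In bulk RNA a change in the number of such cells and a change in their RNA per cell cannot be told apart. The 28 immune members summed to 321 and 106 FPKM in WT 52 and WT 57, 3146 in KO 64 and 495 in KO 84, and 18 of 24 tested lay above both WT libraries (background 26.8%). Their median difference was 2.35, 1.16 without KO 64 and 3.56 without KO 84. The chemokine gene Ccl8 was at 66.4 and 29.1 in WT, 761 in KO 64 and 137 in KO 84, and at 327 and 229 in the Shh-CreER pair. The complement gene C1qa, made by macrophages, was at 18.9 and 6.06 in WT, 220 in KO 64 and 32.2 in KO 84, and at 134 and 66.1 in the Shh-CreER pair. Retnla, a product of alternatively activated macrophages named after its values were seen, was at 66.1 and 17.3 in WT, 979 in KO 64 and 108 in KO 84. Of the immune list outside the members, all 13 tested genes lay above both WT libraries. In the Shh-CreER pair the immune sum was lower in cKO, at 1273 against 1963.

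Connective tissue, fat and vessel members summed to 420 and 482 in WT, 1496 in KO 64 and 461 in KO 84, and their median difference was 2.10, or 0.79 without KO 64. Col3a1, a fibrillar collagen, was at 31.3 and 16.7 in WT, 293 in KO 64 and 56.4 in KO 84, whereas Dcn, the proteoglycan decorin, overlapped at 284, 382, 551 and 291. Fibroblast genes outside the members lay above both WT libraries for 18 of 21 (background 26.8%), with summed levels of 193 and 123 in WT, 1282 in KO 64 and 381 in KO 84. Fabp4, a fatty acid-binding protein of fat cells, was at 49.4 and 58.9 in WT, 216 in KO 64 and 35.4 in KO 84, and at 298 and 193 in the Shh-CreER pair. The beta-globin Beta-s was at 256 and 280 in the Shh-CreER pair and has no value in the K15-CrePGR table. The 5 skeletal muscle members summed to 1.64 and 2.11 FPKM in the HFSC pair, to 132 and 22.2 in Het and cKO of the Shh-CreER TACs, and to between 11.5 and 15.4 in the K15-CrePGR libraries. Other genes of the skeletal muscle list summed to 154 and 502 FPKM in the HFSC pair, and smooth muscle genes, none of them members, to 13.2 and 99.6. The pigment genes Gpnmb and Dct, the latter an enzyme of melanin synthesis, were at 322 and 27.8 and at 82.9 and 15.8 in the Shh-CreER pair. In the K15-CrePGR table Gpnmb was at 72.8 and 81.0 in WT and 138 and 22.7 in KO, and Dct at 14.7 and 16.1 in WT and 38.2 and 22.3 in KO. The part of these cells in the differences of the epithelial members was not tested.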

How the data were processed

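RNA from bulge stem cells and TACs was sequenced in 8 libraries, grouped by their labels. The authors deposited FPKM values in 3 tables, made with TopHat and Cufflinks on mm9 per the submitters' processing notes, which give no versions as used here; each table was normalized separately, with 1 column per library. The FPKM values hold no counts. In the low values of the day 68 tables, single-fragment steps put the depth of HFSC cKO at 0.854 of Het (326 of 2653 genes at that ratio) and of Shh-CreER cKO at 1.00 (400 of 2458); depth was not resolved in the K15-CrePGR table, where 8904 of 45930 loci carry no name and hold 78.4% to 79.0% of the summed FPKM. Symbols without a comma were used, the row of highest mean for each. Values were taken as log2(FPKM + 1), computed here from the deposited FPKM, for loci with a mean of at least 1. K15-CrePGR KO was tested against WT with limma 3.58.1 (R 4.3.3; trend, Benjamini-Hochberg over all named loci, threshold 0.05, tested on simulated data). An exact permutation test of 2 against 2 cannot go below p = 0.333. The other tables have 1 library a side and no test; a difference was counted from 2-fold on the same scale.

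Genes named were drawn from up to 5 members of each gene list and the 12 overall with the highest Shh-CreER Het level, the 10 of lowest p each way in the K15-CrePGR table (mean of at least 5 FPKM), the 8 largest differences each way in HFSCs, the 6 each way in Shh-CreER TACs, and those next to the thresholds; others are marked. The members and lists were chosen with earlier results of these data known, and roles were assigned after values were seen. Alternatives were other pseudocounts, filters, scalings and fits, a 32-fold rule, Krt symbols kept, and leaving out each library. Python 3.11.15 (pandas 2.3.3, numpy 2.4.6, matplotlib 3.10.9) did the rest. Values of 1 member are not reported here.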

Additional observations from a re-analysis of the deposited data

Results flagged for a closer look

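For 3 roles the summed level of the members was higher in the HFSC cKO library than in Het while both K15-CrePGR KO libraries lay below both WT libraries. The difference between the tissues was not tested, and the HFSC side has 1 library in each group. A low HFSC Het level was part of the rule that chose the members, so the higher HFSC cKO sums are a description. The cell cycle members summed to 498 FPKM in HFSC cKO against 125 in Het, and to 1503 and 1496 in KO against 1720 and 2126 in WT. Metabolism and transport members summed to 35.6 against 8.04 in HFSCs, and to 289 and 248 in KO against 386 and 380 in WT. Shaft and inner root sheath members summed to 25.01 against 19.9 in HFSCs, and to 516 and 178 in KO against 1233 and 1048 in WT. Only 4 of them passed the level filter in HFSCs, and 2 of these were higher in cKO.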

How the results depend on the processing

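No paired analysis was possible because the WT and KO libraries carry different numbers. Among members in K15-CrePGR TACs, 0 were called lower in KO, and 1, Car2, was called with a pseudocount of 0.1, a filter of 5 FPKM or quantile normalization (limma adjusted p 0.0425, 0.0423 and 0.0330). With each library left out in turn, the members with KO below WT numbered 71 to 82 and above WT 45 to 57, and the median ran from -0.32 to -0.11. Non-overlap is easier to reach with 1 library on a side, so these counts cannot be compared with the 62 and 41 of the main setting. Under a 32-fold rule, which leaves 83 members, 26 lay below WT and 27 above (background over all loci 27.5% and 26.8%). The median was -0.025, against -0.03 over all loci, so the lower median under the 16-fold rule was not kept. Without the roles of other cell types, 17 lay above WT, and 27 instead of 44 were 2-fold lower in Shh-CreER cKO. In HFSCs, the count of members 2-fold higher was 25 with a pseudocount of 5, 35 with a filter of 5 FPKM and 20 under the 32-fold rule, and the count lower was 0, 1 and 0. For the 2-library differences of low genes the pseudocount bounds what can be counted; for the rest the cause was not tested. Over 20 genes of lowest p and 11 other settings each, 217 values kept their direction and side of the threshold, 3 (Car2) passed it and 0 reversed. Of 228 role medians under other settings, 218 kept their sign and 10 did not. In K15-CrePGR TACs these were junction genes (-0.019 without WT 52, up to 0.88 without WT 57), other signals and receptors (-0.028 with median scaling, -0.047 with quantile normalization, and from -0.76 without KO 64 to 0.34 without KO 84, with -0.31 without WT 52) and skeletal muscle (0.094 without WT 52 and 0.033 without KO 84, down to -0.21 without KO 64). In HFSCs they were immune genes (-0.0048) and transcription factors (0.19) with no filter, which adds genes near 0, and shaft and sheath genes (-0.28) with a filter of 5 FPKM, which leaves fewer genes.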
